A study of Oryza sativa with 10 samples.

Results

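The transcripts described here were high in both the embryo and the leaf of rice and low in endosperm and root. They were picked by signal: a probe set, the group of array probes that reads one transcript, had to reach 500 on both embryo and both leaf arrays and stay under 200 on both endosperm and both root arrays, while the whole seedling was left free. Of 57258 non-control probe sets, 49 met these bounds. The platform annotation gives 44 of them 1 gene each, 44 different genes in all, and gives the other 5 none; 11 of the 44 genes have a readable symbol, and 1 gene (LOC4338985) is a long non-coding RNA. The signals of embryo, leaf, endosperm and root are therefore what chose the members. For the members, differences of embryo or leaf from endosperm or root are given as description, with no test. Such differences were tested only to read gene families, for genes that are not members.

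All RNA came from one japonica cultivar, Zhonghua 11, grown in a phytotron, and was hybridized to an oligonucleotide array of the rice genome. The seed parts, embryo and endosperm, were taken at 6 days after anthesis; seedlings aged 7 days gave the leaf and the root, and whole seedlings were collected at 10 days. Each of these 5 groups had 2 biological replicates, 10 arrays in all, and no group carried a treatment or a mutation. The number of arrays limits the precision.

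A rice seed encloses 2 products of fertilization: the embryo, which already lays down a shoot apex and its first leaf primordia, and the endosperm, which stores starch and protein. Leaf primordia and growing leaves share sets of regulators, among them TCP factors, which control cell proliferation and organ shape, YABBY factors of lateral organs, and class IV HD-Zip factors of the epidermis. GLK factors of the GARP family switch on nuclear genes of the chloroplast. The comparison of embryo with leaf asked how evenly the shared transcripts were divided between the embryo, of which the shoot apex is only a part, and the green organ.

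The tissue labels were checked against marker genes. The embryo arrays carried VP1, a regulator of seed maturation, at 8764 and 7539, and the endosperm arrays the starch synthase gene WX at 55104 and 40335, while the root arrays carried the silicon channel gene LSI1 at 17616 and 17769. The dissected tissues were not free of each other's markers. Seed storage transcripts were read in embryo (GLUA2 at 19538 and 21448), and CAB2R, which encodes a light-harvesting protein of green tissue, reached 15512 and 3976 in root and 3028 and 24306 in endosperm. All 5 green-tissue markers were called lower in embryo than in leaf, and 7 of 8 endosperm markers higher; all 4 embryo markers were called higher in embryo. Of 6 root markers tested, 1 was called higher in embryo than in leaf and 3 lower. Of 2 seed coat and maternal markers tested, 1 was called higher in embryo and 0 lower. On endosperm 2 and root 1 the members had median signals of 93.5 and 84.8, and the rule admits no transcript that reached 200 there. In whole tissues, fewer cells of a type and less RNA per cell cannot be told apart.

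Few probe sets had this pattern. By the same 2 bounds, leaf with root held 436, embryo with endosperm 189, embryo with root 27, endosperm with leaf 5 and endosperm with root 3, while 282 were high in leaf only and 144 in embryo only. Another 75 probe sets missed the pattern on exactly 1 array, in 23 of them on root 1, in 18 on endosperm 2 and in 17 on root 2. At the high bound the members nearest to it were LOC4337160 (lowest signal 503, on embryo 1) and a probe set with no gene assigned (504, on leaf 1), and just outside lay LOC4348874 (495, on embryo 2). At the low bound LOC4347709 lay just inside (197 on root 1) and LOC4326437 just outside (207 on root 2).

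Across the 49 members the signals spanned a wide range of levels. The median was 1274 and 1101 on the 2 embryo arrays, 1036 and 1204 on the leaf arrays, 816 and 789 on the seedling arrays, 64.6 and 93.5 on the endosperm arrays and 84.8 and 96.0 on the root arrays. The endosperm and root medians lay above the median of all probe sets on the same arrays, 50.5 and 86.8 in endosperm and 55.3 and 57.1 in root, with the wider gap in root. The lowest embryo or leaf signal of a member exceeded its highest endosperm or root signal by 2.75-fold at the least, 6.28-fold at the median and 39.6-fold at the most. In embryo no member had replicates at least 2-fold apart, against 12.6% of the 30014 probe sets tested; in leaf 1 had, against 7.40%, and in seedling 6, against 9.70%. The signal bounds of the rule bear on the embryo and leaf counts, but not on those of the seedling.

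**Figure D1:**
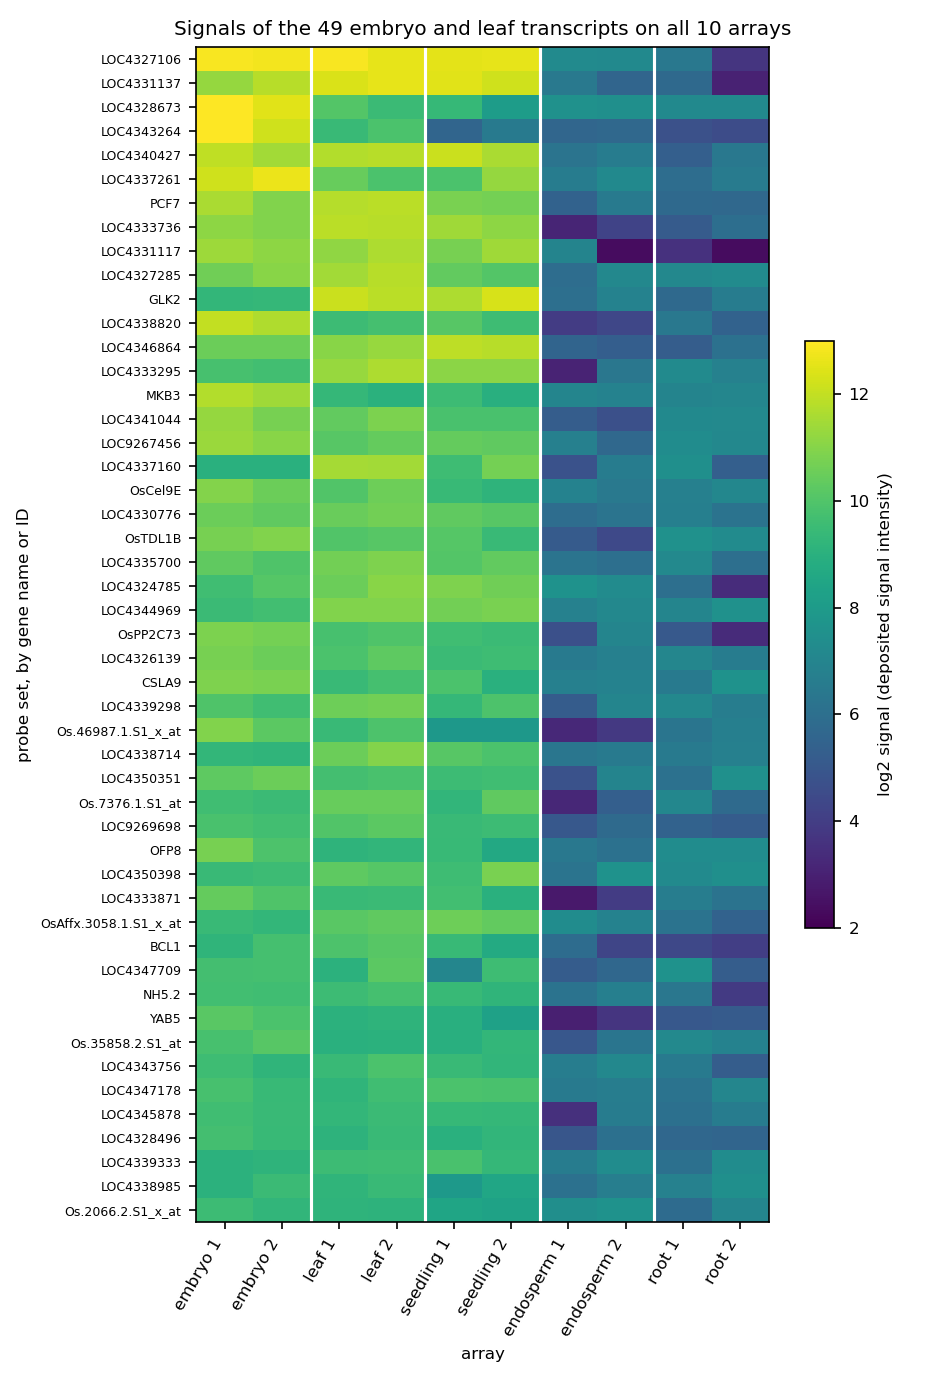
Signals (log2 of the deposited intensity, colour) of the 49 probe sets high in embryo and leaf, 1 row each in order of their mean over the embryo and leaf arrays, on the 10 arrays, 1 column each. The embryo, leaf and most seedling columns are bright and the endosperm and root columns dark; LOC4343264 is dark in the seedling columns (48.3 and 92.1).

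Of the 11 members with a symbol, 7 (PCF7, YAB5, GLK2, BCL1, NH5.2, OFP8 and MKB3) belong to families of transcriptional regulators. PCF7 (LOC4325137), a TCP factor, read 3148 and 1935 in embryo, 3536 and 3755 in leaf and 1761 and 1668 in seedling, against 43.7 and 93.5 in endosperm and 54.9 and 51.9 in root. Both leaf arrays lay above both embryo arrays, and the seedling lay below both. YAB5 (LOC4336518, also listed as OsYAB3), a YABBY factor, read 1150 and 935 in embryo, 542 and 574 in leaf and 486 and 319 in seedling, with 7.73 and 13.1 in endosperm and 32.3 and 36.0 in root. Its mean endosperm signal was the lowest of the 49 members, and embryo stood above leaf on both arrays.

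GLK2 (LOC4326363), a GARP-family activator of chloroplast genes, was the most uneven member toward leaf: 617 and 640 in embryo against 4398 and 3728 in leaf. The whole seedling, at 3177 and 5158, overlapped the leaf, while endosperm had 64.6 and 119 and root 54.8 and 99.0. BCL1 (LOC4346166), also named bHLH080 and so of the bHLH class of transcription factors, read 580 and 877 in embryo, 960 and 1146 in leaf and 676 and 429 in seedling. Embryo and leaf did not overlap, nor did seedling and leaf. In endosperm and root it stood between 16.3 and 58.9.

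NH5.2 (LOC4351457), named as a homologue of the defence and development regulator NPR1, was the most even of the named members. It read 820 and 785 in embryo and 743 and 861 in leaf, with 685 and 583 in seedling, and embryo and leaf overlapped. OFP8 (LOC4324787), of the OVATE family of growth repressors, read 1695 and 983 in embryo against 569 and 612 in leaf, while the seedling arrays had 685 and 397. The embryo arrays both lay above the leaf arrays but were themselves well apart. MKB3 (LOC4334010, also MAKIBA3), a coactivator that binds growth-regulating factors, read 3429 and 2773 in embryo, 636 and 527 in leaf and 755 and 486 in seedling, so that its leaf and seedling signals overlapped far below those of embryo.

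The other named members belong to the cell wall and to signalling. CSLA9 (LOC4341571), of the cellulose synthase-like family that makes mannans, read 1849 and 1789 in embryo, 702 and 875 in leaf and 953 and 509 in seedling. OsCel9E (LOC4330637), an endoglucanase that trims cell wall glucans, read 1998 and 1461 in embryo, 1019 and 1536 in leaf and 685 and 570 in seedling. Embryo was above leaf without overlap for CSLA9, and the 2 tissues overlapped for OsCel9E. OsPP2C73 (LOC4349568) is a protein phosphatase of the PP2C class. It read 1817 and 1676 in embryo, 893 and 1000 in leaf and 785 and 713 in seedling, with no overlap between the 3 tissues. In the fit given below, neither embryo against leaf nor seedling against leaf was called for OsPP2C73, PCF7, YAB5 or BCL1. Embryo and leaf arrays without overlap were common among all tested probe sets, as also given below. OsTDL1B (LOC9270335), a small protein of the family of the anther ligand TPD1 of Arabidopsis, read 1726 and 1909 in embryo and 1036 and 1115 in leaf by its member probe set, and 1084 and 701 in seedling.

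**Figure D2:**
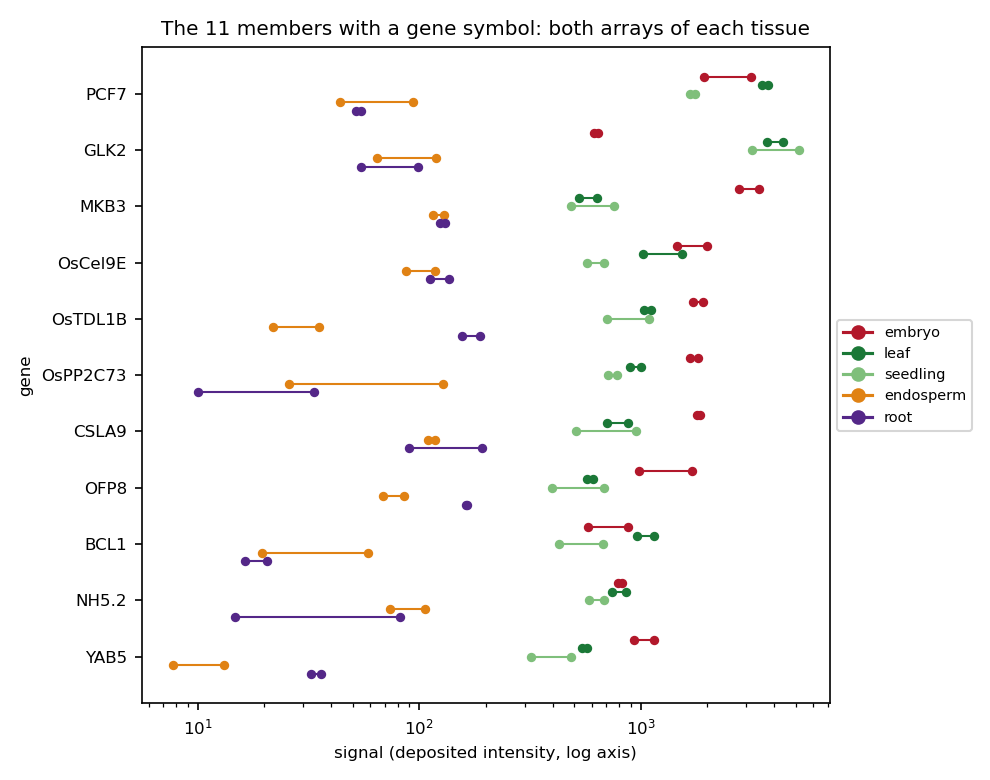
Signals (deposited intensity, log axis) of the 11 members with a gene symbol; the 2 joined points of a colour are the 2 arrays of a tissue. Embryo, leaf and seedling points lie to the right of all endosperm and root points of the same gene, with GLK2 lowest in embryo among these 3 tissues (617 and 640) and MKB3 highest in embryo (3429 and 2773).

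The highest members have no symbol in the tables used. LOC4327106 led with 7518 and 7133 in embryo, 7533 and 6125 in leaf and 5931 and 6087 in seedling, against 155 and 149 in endosperm and 83.7 and 12.9 in root. Its probe set is one that may cross-hybridize to similar transcripts, as are 12 of the 49 by their suffix. LOC4331137 followed in leaf and seedling, with 5346 and 6181 in leaf, 5835 and 4734 in seedling and 2421 and 3665 in embryo. LOC4340427 was even across the 3 tissues, at 3984 and 2825 in embryo, 3371 and 3591 in leaf and 4500 and 3080 in seedling. LOC4333736 read 2241 and 1906 in embryo and 3713 and 3648 in leaf, and LOC4331117 read 2659 and 2259 in embryo and 2277 and 3214 in leaf. In LOC4333736 the tissues stood apart and in LOC4331117 they overlapped. LOC4327285, the tenth of the members by mean, read 1577 and 2127 in embryo, 2871 and 3585 in leaf and 1297 and 1075 in seedling, so that all leaf signals lay above all others. The long non-coding RNA LOC4338985 stood near the lower end, at 542 and 722 in embryo, 591 and 708 in leaf and 246 and 370 in seedling. Embryo and leaf overlapped for it, and the seedling lay below both.

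In gene order, LOC4324785 and OFP8 lie close together with 2 genes between them, and no other pair of member genes was nearer than the 19 genes that separate LOC4331117 and LOC4331137.

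For 12 of the 44 genes the array holds further probe sets, 18 in all, which the rule did not use. They were hybridized with the same RNA samples, and the annotation assigns them to the same genes. In 10 of the 18, every embryo and leaf array lay above every endosperm and root array, as in 3.38% of all non-control probe sets, and 5 of the 18 stayed under 200 on all arrays. LOC4327106 kept its order by both of its others, with means of 15597 and 14998 in embryo, 10937 and 12318 in leaf, 2705 and 882 in endosperm and 820 and 237 in root. LOC4338820, by its other probe set, had means of 6861 in embryo, 2700 in leaf, 199 in endosperm and 65.6 in root. One of the 3 others of OsPP2C73 had 4064 in embryo and 2514 in leaf, against 198 in endosperm and 63.7 in root. By these 4 probe sets embryo and leaf lay above endosperm and root, at larger embryo and leaf signals than by the member probe sets. Another of OsPP2C73 gave a different one, with 708 on endosperm 1 and no array of embryo or leaf above 143.

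OsTDL1B and GLK2 were read differently by their other probe sets. For OsTDL1B the second probe set had a mean of 20074 in embryo and only 21.3 in leaf and 11.5 in seedling, so the leaf signal of about 1036 to 1115 rests on one of its 2 probe sets. Which of them reads the gene was not tested. For GLK2 the 3 others had leaf means of 441, 469 and 276 and embryo means of 165, 26.2 and 37.7. By 2 of these 3 the embryo arrays did not all lie above the endosperm and root arrays, so the embryo level of GLK2 also differed between probe sets.

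Between embryo and leaf the members stood on either side, as all tested probe sets did, and the split of calls depended on the scaling, as given below. Both embryo arrays lay above both leaf arrays for 17 members (39.2% of all tested probe sets did so) and below them for 19 (44.1% of all), and 13 overlapped. In a limma fit over all 10 arrays, 7 members were called higher in embryo and 5 higher in leaf, at an adjusted p under 0.05 and at least a 2-fold difference. These 12 are 24.5% of the members, against 41.8% of all 30014 tested probe sets (18.3% higher in embryo and 23.5% lower). At an unadjusted p under 0.05, 12 members were higher in embryo (24.3% of all tested were) and 7 lower (29% of all tested). The median log2 difference was 0.01 over the members and -0.08 over all tested. The rule set the same lower bound on both tissues and did not use their difference, but signals held at 500 or more leave less room for large differences.

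The 7 transcripts higher in embryo were led by LOC4328673, with 8324 and 5855 against 1061 and 719 in leaf (log2 difference 2.98 ± 0.42 SE, limma adjusted p = 0.000299). LOC4343264 had 8960 and 4703 against 706 and 944 (2.97 ± 0.42, adjusted p = 0.0003). MKB3 followed at 2.38 ± 0.32 (adjusted p = 0.000247). The ratio of the embryo to the leaf mean was 7.97, 8.28 and 5.33 in these 3, and both embryo arrays lay above both leaf arrays. LOC4337261, with 4682 and 6543 against 1389 and 939, differed by 2.26 ± 0.47 (limma adjusted p = 0.00288), and LOC4338820, with 4067 and 3352 against 736 and 863, by 2.19 ± 0.37 (adjusted p = 0.000874). CSLA9 and OFP8 passed more narrowly, at 1.20 ± 0.41 (limma adjusted p = 0.0361) and 1.11 ± 0.38 (adjusted p = 0.0365). Without embryo 1, leaf 1 or leaf 2 neither was called (limma adjusted p from 0.0933 to 0.188 for CSLA9 and from 0.127 to 0.273 for OFP8), nor was CSLA9 without embryo 2 (adjusted p = 0.121).

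The 5 transcripts higher in leaf were led by GLK2, at a log2 difference of -2.66 ± 0.38 SE (embryo minus leaf, limma adjusted p = 0.000353). LOC4337160 had 503 and 506 in embryo against 2905 and 2814 in leaf (-2.47 ± 0.63, adjusted p = 0.00913). LOC4333295 had 886 and 822 against 2549 and 3221 (-1.73 ± 0.54, adjusted p = 0.0234). The ratio of the leaf to the embryo mean was 6.46, 5.67 and 3.38 in these 3. LOC4338714, with 618 and 585 against 1468 and 1969, differed by -1.48 ± 0.31 (limma adjusted p = 0.00325), and LOC4344969, with 725 and 821 against 1955 and 1942, by -1.32 ± 0.30 (adjusted p = 0.00486). LOC4333295 was not called without either embryo or either leaf array (limma adjusted p from 0.0703 to 0.125). LOC4337160 was not called without embryo 1 (adjusted p = 0.0529) or leaf 1 (0.0508), nor LOC4338714 without leaf 2 (0.0542).

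RNA quality differed between these tissues: Gapdh probe sets at the 3′ end read 1.82 and 1.65 times those at the 5′ end on the embryo arrays, and 26.3 and 29.1 times on the leaf arrays. The part of this ratio in the differences between embryo and leaf was not tested. It was 11.3 and 9.45 in seedling, 4.71 and 5.28 in endosperm and 2.04 and 24.0 in root. The split of calls depended on the scaling of the arrays: 7 higher and 5 lower in embryo as given became 5 and 8 with scaling to the median and 11 and 5 with quantile scaling. Scaling to the median also moved the median difference of all tested probe sets from -0.08 to -0.32, and that of the members from 0.01 to -0.25; with quantile scaling the 2 medians were 0.05 and 0.31.

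**Figure D3:**
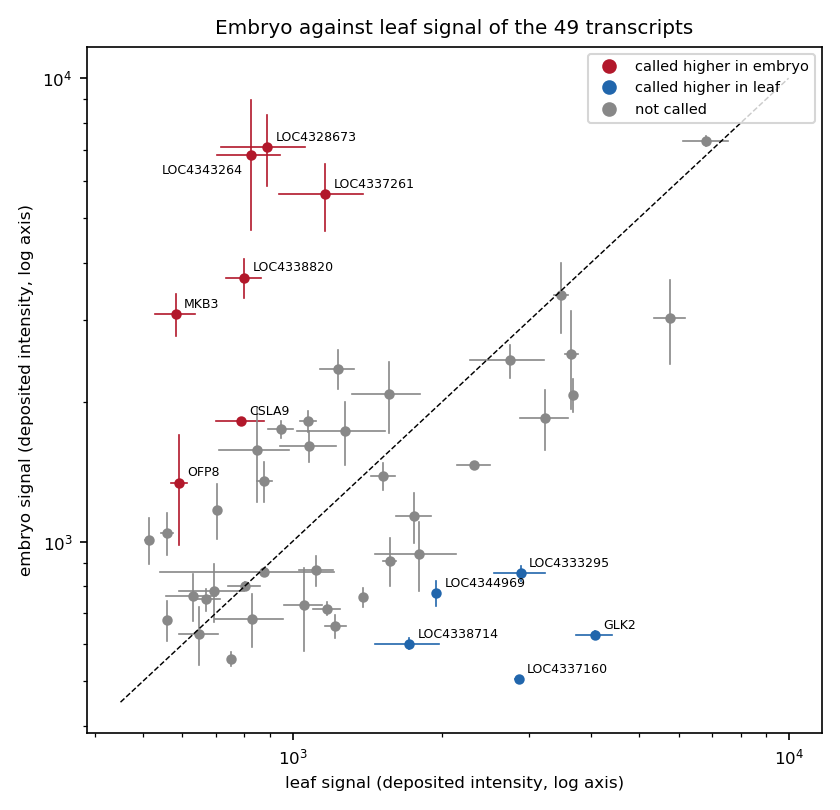
Mean embryo signal against mean leaf signal (deposited intensity, log axes) of the 49 members; each bar joins the 2 arrays of a tissue and the dashed line marks equal signals. The 7 members called higher in embryo (red) and the 5 called higher in leaf (blue) stand off the line, from GLK2 (629 against 4063) to LOC4328673 (7090 against 890).

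The whole seedling, which the rule left free, carried most of these transcripts. On both seedling arrays 38 of the 49 members (77.6%) reached 500, against 24.0% of all non-control probe sets, and 1 stayed under 200. Among the 282 probe sets high in leaf only, 44.7% reached 500 in seedling, and among the 144 high in embryo only, 0.694%. The share was 81.7% of the 436 high in leaf and root and 87.3% of the 252 high in embryo, leaf and root, so a high seedling signal was not particular to embryo-and-leaf transcripts. Median leaf signals of the embryo-and-leaf and the leaf-only probe sets were 1116 and 955, and their median seedling signals were 893 and 627. The median ratio of seedling to leaf was 0.791 (quartiles 0.597 and 0.975) for the members and 0.616 (0.411 and 0.903) for the leaf-only probe sets, a difference given here without a test. For 47 of the 49 members both seedling arrays lay above every endosperm and root array (21.1% of all tested probe sets did so), a count that the low bound on endosperm and root largely sets; the exceptions were LOC4343264 and LOC4347709.

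Against leaf alone, the seedling was mostly level or lower. Both seedling arrays lay below both leaf arrays for 26 members (53.1%, against 30% of all tested probe sets) and above for 3 (32.7% of all), and 20 overlapped. The leaf signals had to reach the bound while the seedling signals did not, so the 2 sides are not on the same footing. In the limma fit 2 members were called lower in seedling and 0 higher, 4.08% against 2.71% of all tested (0.736% lower and 1.97% higher). At an unadjusted p under 0.05, 9 were lower and 0 higher, against 5.79% lower and 8.53% higher of all tested. Log2 differences of the members ran from -3.32 to 0.67, with a median of -0.32 against 0.02 over all tested.

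The 2 called members fell to near or below the low bound in seedling. LOC4343264 read 48.3 and 92.1 in seedling against 706 and 944 in leaf, a log2 difference of -3.32 ± 0.42 SE (limma adjusted p = 0.00289). Without seedling 1 it was not called (-2.94, limma adjusted p = 0.0573). A probe set with no gene assigned read 235 on both seedling arrays against 710 and 985 in leaf (-1.77 ± 0.37, limma adjusted p = 0.0367). It lost its call when any of the 2 embryo, 2 leaf or 2 seedling arrays was left out (limma adjusted p from 0.0602 to 0.395). The 3 members above leaf on both seedling arrays were LOC4346864 (3781 and 3604 against 2142 and 2502), LOC4347178 (939 and 924 against 592 and 797) and a probe set with no gene assigned (1508 and 1330 against 1160 and 1280). None of these 3 was called. Besides LOC4343264, 10 members were neither at 500 or more nor under 200 on both seedling arrays, among them LOC4328673 (668 and 271), MKB3, OFP8, BCL1 and YAB5. Of these, LOC4347709 had replicates far apart, with 132 and 765 in seedling and 541 and 1210 in leaf. Root transcripts were part of the seedling RNA, with LSI1 at 9878 and 4725 there. Of 6 root markers tested, 3 were called higher in seedling than in leaf and 1 lower. The leaf came from seedlings of 7 days and the whole seedlings were 10 days old. The share of root transcripts or of age in lowering the members' signals was not tested.

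**Figure D4:**
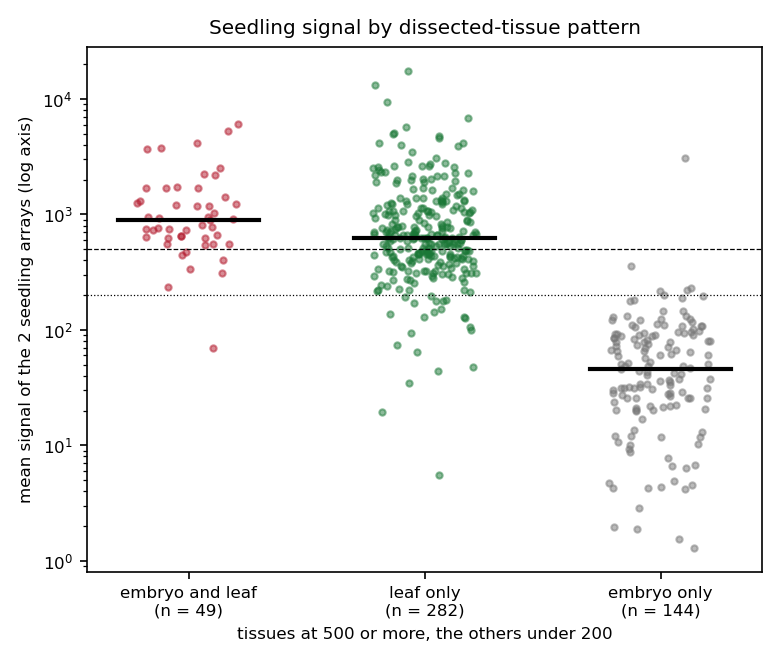
Mean signal of the 2 seedling arrays (log axis) for probe sets high in embryo and leaf (49), in leaf only (282) and in embryo only (144); each point is a probe set, thick lines are medians (893, 627 and 46.2), and thin lines mark 500 (dashed) and 200 (dotted). Most embryo-and-leaf points lie above 500, and nearly all embryo-only points lie below 200.

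TCP and YABBY factors, which hold members, and class IV HD-Zip factors, which hold none, were then read as families. They were read with 1 probe set per gene, from lists of symbols. No list was made for the families of BCL1, OFP8 and NH5.2. A gene was counted as following the pattern if both embryo and leaf were called higher than both endosperm and root, in 4 comparisons of the same fit; 1.74% of all tested probe sets did. The members were chosen on the same signals and are left out of these counts. Of 7 class IV HD-Zip genes tested 5 followed the pattern, of 6 TCP genes other than PCF7 3, and of 5 YABBY genes other than YAB5 2. Other lists of shoot and growth genes mostly did not follow it. The count was 0 of 8 KNOX and BELL genes and 0 of 7 class III HD-Zip and KANADI genes of leaf polarity. It was also 0 of 12 SPL, 0 of 4 ALOG and 0 of 32 cell cycle genes. Of 17 auxin response factor genes 1 followed the pattern, and of 10 growth-regulating factor genes 2. It was followed by 1 of 25 Aux/IAA genes, and in 2 short lists by 1 of 4 cuticle and epidermal lipid genes and 1 of 3 stomata genes. None of 18 gibberellin and brassinosteroid genes and none of 8 auxin transport genes followed it. Since the lists were chosen with earlier results known, these counts are a description.

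Class IV HD-Zip genes, which act in the epidermis, held no member, because their endosperm or root signals were above the bound or their own too low. ROC1 read 4147 and 2680 in embryo and 3070 and 3242 in leaf, against 503 and 593 in endosperm and 278 and 144 in root. ROC2 read 4890 and 3598 in embryo and 3147 and 3769 in leaf, against 306 and 629 in endosperm and 435 and 220.0 in root. Embryo and leaf overlapped in both genes. The largest of the 4 limma adjusted p-values was 0.000269 for ROC1 and 0.000373 for ROC2, and the smallest of the 4 log2 differences 2.50 and 2.92. ROC5, ROC6 and ROC3 followed the pattern too (limma adjusted p at most 0.0276). The 2 genes that did not were ROC4, which read 753 and 1597 in endosperm against 165 to 177 in embryo and leaf, and TF1, at 613 and 483 in embryo and 195 and 135 in leaf.

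Among TCP genes PCF8, PCF5 and PCF3 followed the pattern beside PCF7. PCF8 read 2697 and 2222 in embryo and 2259 and 2579 in leaf, against 122 and 233 in endosperm and 587 and 966 in root. PCF5 read 2742 and 1600 in embryo and 1438 and 1620 in leaf, against 303 and 220.2 in endosperm and 180 and 278 in root. The largest of the 4 limma adjusted p-values was 0.00777 for PCF8, 0.000857 for PCF5 and 0.00323 for PCF3. PCF2 and PCF6 stood apart: PCF2 read 1864 and 1597 in root and 530 and 425 in embryo, and PCF6 was highest in endosperm, at 928 and 706. Of the 7 TCP genes, PCF7 included, limma called 1 lower in embryo than in leaf (PCF2) and 0 higher, with the same counts at an unadjusted p under 0.05; without embryo 2, 1 more was called, higher in embryo.

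The YABBY gene YAB4 was close to a member: 819 and 609 in embryo, 220 and 270 in leaf, 74.96 and 2.42 in endosperm and 35.6 and 1.12 in root, so its leaf signal kept it out. YAB2 followed the pattern with a larger endosperm and root signal (largest limma adjusted p = 0.0332). Without leaf 1, leaf 2 or root 2, fewer YABBY genes followed it, in a count that includes YAB5. The rule had chosen YAB5 on these same signals, so its place in that count is no test. YAB1 read 940 and 6026 on the endosperm arrays, which were far apart. The symbol YAB5 also matched a second gene, LOC4352818, which did not follow the pattern. It read 321 and 510 in embryo and 921 and 997 in leaf, against 109 and 932 in endosperm and 758 and 536 in root. Between embryo and leaf 0 of the 6 YABBY genes were called by limma, with 1 higher and 0 lower at an unadjusted p under 0.05; without endosperm 1 or endosperm 2, 3 were called, 1 higher in embryo and 2 lower.

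**Figure D5:**
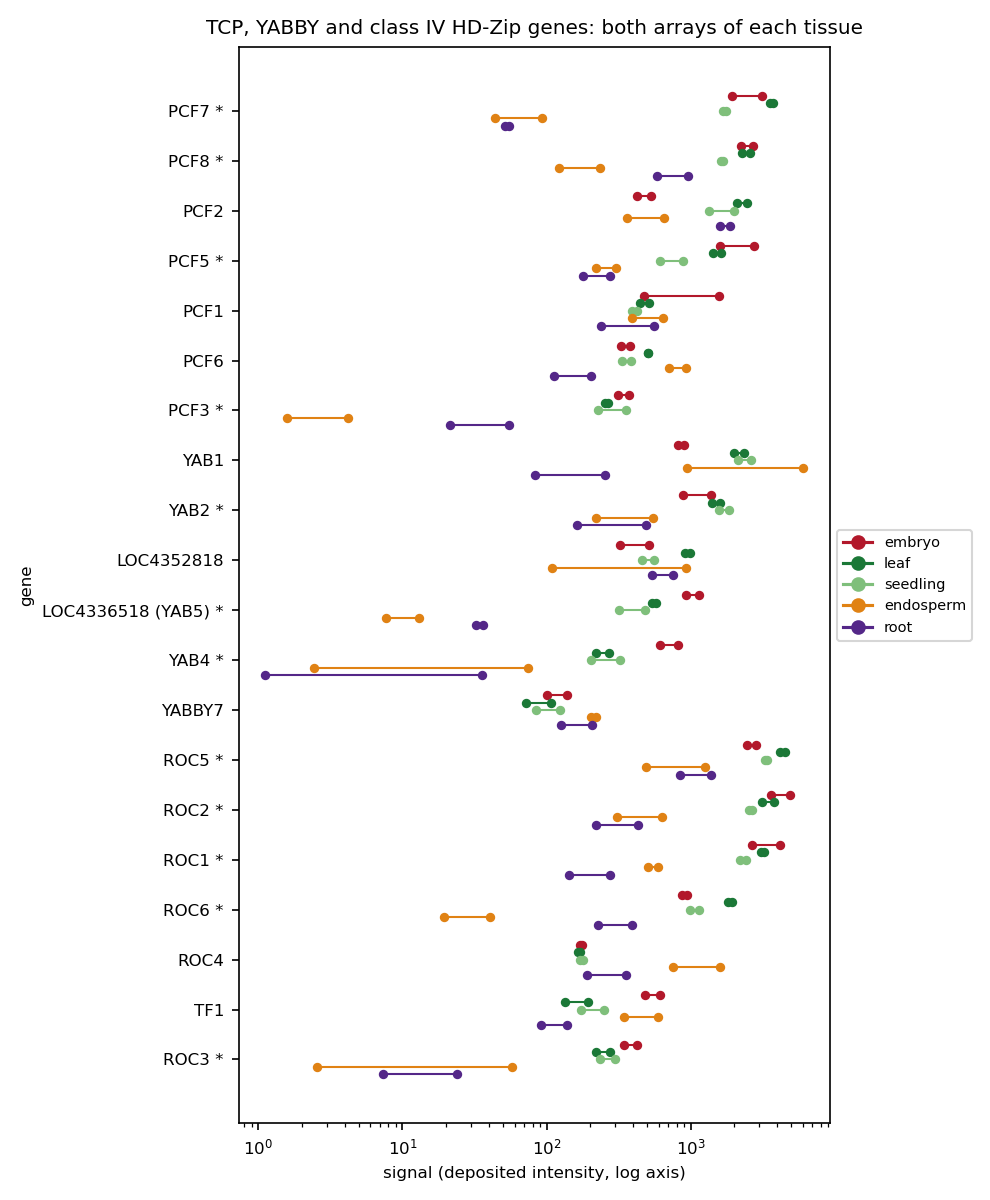
Signals (deposited intensity, log axis) of the 7 TCP, 6 YABBY and 7 class IV HD-Zip genes tested; the 2 joined points of a colour are the 2 arrays of a tissue, and a star marks genes with embryo and leaf both called higher than endosperm and root. Starred genes have red and dark green points to the right of orange and purple ones, as in ROC1, and ROC4 shows the opposite order. PCF7 and YAB5 are members that the rule chose on these same signals, so their stars are no test.

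Other lists that touch the shoot were divided in different ways between embryo and leaf. Of 8 KNOX and BELL genes of the shoot meristem 3 were called higher in embryo and 4 lower, and of 17 auxin response factor genes 3 higher and 3 lower. Of 10 growth-regulating factor genes, the partners of MKB3, 7 were called by limma as higher in embryo than in leaf and 0 lower (8 and 0 at an unadjusted p under 0.05); GRF4, also listed as GL2 and grf2, followed the 4-comparison pattern but stood at 11509 and 8017 in embryo against 468 and 444 in leaf, below the bound. Of 16 genes of chlorophyll synthesis and chloroplast development, 13 were called lower in embryo and 0 higher (15 and 0 at an unadjusted p under 0.05), and GLK2 was the 1 member among them. Its relative GLK1 read 18.2 and 4.73 in embryo against 563 and 841 in leaf. Of 8 photosystem and light-harvesting genes 6 were called lower in embryo and 0 higher by limma (6 and 1 at an unadjusted p under 0.05), and none was a member. The receptor kinase gene CR4, placed on the list of epidermal genes, read 1403 and 1168 in embryo and 2107 and 1831 in leaf, against 99.4 and 47.3 in endosperm and 126 and 274 in root, and missed membership by root 2 alone.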

How the data were processed

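Signals of 10 arrays were used as the authors deposited them: linear signal intensity per probe set, made with MAS5 (version not given in the sources used here), per the submitters' processing notes. In the deposited table every array had a 2% to 98% trimmed mean of 500. No detection calls or scanner files were used. Control probe sets (123 of 57381 on the array) were not used. Genes come from the platform annotation, and symbols from a rice gene table (ASM3414082v1). Sequences and promoter motifs were not analysed here.

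For tests, 16 was added and log2 taken; 30014 probe sets with a signal of at least 100 on at least 2 arrays entered one limma 3.58.1 fit (R 4.3.3) with a mean per tissue and an intensity trend. P-values were adjusted (Benjamini-Hochberg) over all tested. The procedure was run on simulated data with set differences in embryo and independent noise. Those data held no differences in RNA quality or scaling between tissues, so the run cannot speak to either. Named were all members with a symbol, the 10 highest, up to 5 called ones in each direction of each comparison, those nearest the bounds and genes of the lists, except that probe sets without a gene are described without their IDs. Members and lists were chosen with earlier results of these data known. Replicate numbers were not used to pair samples in the main fit (correlations of deviations between tissues from -0.108 to 0.0962). Whether samples of the same number shared plants or a batch was not tested. Of the genes that the lists matched by symbol, 8 matches were left out after their values had been seen, because their synonyms name another gene.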

Additional observations from a re-analysis of the deposited data

How the results depend on the processing

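The number of transcripts in the pattern was set by its bounds: 49 as given, 109 with bounds of 400 and 250, 5 with 1000 and 100, 77 with scaling to the median (46 of the 49 among them), 41 with quantile scaling (37 of the 49), 54 with spike-in scaling (32 of the 49; this scaling was chosen after the data had been seen), 37 without probe sets that may cross-hybridize, and 50 to 72 with 1 array left out (72 without root 1). Members called between embryo and leaf numbered 8 to 12 with 1 array left out, against 12, and 12 with the replicate block. Between seedling and leaf the 2 calls became 1 with a pseudocount of 1, with spike-in scaling, without a filter, at an adjusted p under 0.01 or with the replicate block. They became 6 with only the 2 tissues in the fit. With 1 array left out they were 0 to 3: 0 by limma without seedling 1 (7 at an unadjusted p under 0.05), 1 without seedling 2 or either embryo or leaf array, and 3 without endosperm 1 or endosperm 2. The members at 500 or more in seedling numbered 40 and 42 by 1 seedling array, against 38. No called gene changed direction in any alternative run. The signal over background could not be judged, since no detection calls were used.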
